A study of Mus musculus with 3 samples.

Results

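Granulocyte-monocyte progenitors and promyelocytes, the dividing marrow cells that fill the first granules of the neutrophil and monocyte lines, were picked out cell by cell in single-cell RNA libraries of mouse bone marrow. A cell was taken when its barcode held at least 300 genes, at least 500 UMIs (counted RNA molecules) and at most 10% mitochondrial UMIs, when Mpo, Elane, Prtn3 and Ctsg together gave at least 20 UMIs and at least 1% of its UMIs, when the later granule genes Camp, Ngp and Ltf gave under 1%, and when it held no Cd79a UMI, a B cell mark. These measured values chose the cells, so the levels of the genes in this rule are given as a description only. The rule found 1464 cells of 71014 that passed the cell filter: 530 of 22506 in MI-E, 623 of 23455 in MI and 311 of 25053 in Sham.

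The marrow came from femurs and tibias of C57BL/6J mice and was enriched over a Ficoll density gradient before droplet sequencing. The MI-E group is labelled as MI with EMPA, an agent that the labels give only by this abbreviation, the MI group had myocardial infarction by ligation of the LAD coronary artery, and the Sham group is labelled sham; the strain and tissue were the same in the 3 groups, while age, time after surgery and dose are not given in the sources used here. Each group is 1 library, and the number of animals behind a library is not given, so every difference below is between these libraries, has no replicate check and was not tested. The libraries held 109451500 UMIs in MI-E, 127330601 in MI and 99657072 in Sham. Intervals are exact, at 95%, and cover counting error only.

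In the marrow, granulocyte-monocyte progenitors arise from multipotent progenitors and feed both the neutrophil and the monocyte line. Promyelocytes, the next step toward the neutrophil, make and store the azurophil (primary) granules, whose main contents are myeloperoxidase and a family of serine proteases. The transcription factors Gfi1 and C/EBP epsilon favour the neutrophil path, while Irf8 and Klf4 favour the monocyte path.

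The promoters of the 4 granule genes that define these cells are shown because these genes chose the cells. Each runs 5′ to 3′ on the gene's own strand, from 250 bases before to 50 bases after the start of the RefSeq gene (build GRCm38.p6). Capitals mark AGGAAGT, a 7-base word around the GGAA core that ETS family factors such as PU.1 bind, searched on both strands and chosen after the sequences were read:
Mpo, chr11:87793534-87793833, plus strand: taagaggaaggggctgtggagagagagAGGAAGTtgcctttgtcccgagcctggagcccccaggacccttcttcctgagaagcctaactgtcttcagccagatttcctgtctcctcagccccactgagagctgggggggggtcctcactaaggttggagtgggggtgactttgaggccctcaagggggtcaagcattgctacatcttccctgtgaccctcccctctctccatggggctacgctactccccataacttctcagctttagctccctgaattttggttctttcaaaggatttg
Elane, chr10:79886062-79886361, plus strand: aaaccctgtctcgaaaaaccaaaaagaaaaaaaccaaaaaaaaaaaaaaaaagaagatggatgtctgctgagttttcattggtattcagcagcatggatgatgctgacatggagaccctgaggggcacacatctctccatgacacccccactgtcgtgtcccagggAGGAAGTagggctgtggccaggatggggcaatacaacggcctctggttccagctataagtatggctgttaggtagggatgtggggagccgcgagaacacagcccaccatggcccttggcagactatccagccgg
Prtn3, chr10:79879417-79879716, plus strand: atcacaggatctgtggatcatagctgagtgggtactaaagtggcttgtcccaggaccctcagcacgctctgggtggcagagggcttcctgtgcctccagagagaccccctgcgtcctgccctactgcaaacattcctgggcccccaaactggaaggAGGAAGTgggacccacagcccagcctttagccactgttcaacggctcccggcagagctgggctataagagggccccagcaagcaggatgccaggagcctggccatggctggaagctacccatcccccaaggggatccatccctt
Ctsg, chr14:56102525-56102824, minus strand: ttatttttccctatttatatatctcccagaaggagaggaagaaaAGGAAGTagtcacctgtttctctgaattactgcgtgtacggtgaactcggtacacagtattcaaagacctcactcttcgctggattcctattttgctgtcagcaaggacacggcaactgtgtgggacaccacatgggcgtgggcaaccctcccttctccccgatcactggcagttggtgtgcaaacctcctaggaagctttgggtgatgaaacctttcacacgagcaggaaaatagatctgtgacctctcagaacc
Each of the 4 windows held the word 1 time, with its first base 223, 84, 94 and 206 bases before the RefSeq start in Mpo, Elane, Prtn3 and Ctsg. The gene positions given further below come from a second annotation, GENCODE M21, whose starts differ for Mpo, Elane and Prtn3. The Prtn3 window lies inside its GENCODE gene. The window of Ms4a3, the fifth marker gene, held none. Of 32851 promoters of the same length, 9.35% held the word. A match is a run of letters and not a shown binding site.

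The cells carried the label's markers in depth. They were large, with medians of 20298 UMIs in MI-E, 20995 in MI and 16315 in Sham, against medians of 2818, 3362 and 2533 UMIs in the other cells of MI-E, MI and Sham. Of the deposited barcodes, 156 were shared by MI-E and MI, 176 by MI-E and Sham and 170 by MI and Sham. None of these was a chosen cell in both libraries of a pair. With so few shared barcodes and so few chosen cells, this says little about the cells. Ms4a3, a membrane protein known as a mark of these progenitors and not part of the rule, had a UMI in 99.6% of the chosen cells of MI-E, 99.7% of MI and 98.1% of Sham. With every cell thinned to 2000 UMIs, Ms4a3 was found in 85.0%, 87.9% and 79.4% of the chosen cells of MI-E, MI and Sham. At the same depth it was found in 8.09%, 10.8% and 3.55% of B lineage cells (at least 3 Cd79a UMIs) of MI-E, MI and Sham. Only B lineage cells with at least 2000 UMIs entered, 1421 of 4133 in MI-E, 1112 of 3268 in MI and 4707 of 10993 in Sham. B lineage cells should lack the gene, and the parts of free RNA and of doublets in this level were not tested. Kit, the stem cell factor receptor, was found in 18.8%, 15.6% and 12.6% of thinned chosen cells in MI-E, MI and Sham, against 1.62%, 2.97% and 1.42% of thinned B lineage cells. Without thinning, Kit had a UMI in 70.2%, 67.3% and 56.9% of the chosen cells of MI-E, MI and Sham.

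Other lineages were present in small numbers. Of 8 listed basophil and mast cell genes 5 were measured at 10 CPM or more and Cma1 was at 0 in all libraries. Sham held 12 cells with at least 10 UMIs of the basophil and mast cell genes Mcpt8, Prss34, Cpa3 and Ms4a2, and these 12 cells gave 98.3% of the 7695 UMIs of those genes in Sham. MI-E had 12 such cells and MI 19, but the 4 genes summed to 128 CPM in MI-E and 142 CPM in MI, against 1449 CPM in Sham (CPM: UMIs of a gene per 1000000 UMIs, summed over the chosen cells of a library). Cells with at least 10 UMIs of the eosinophil genes Prg2, Prg3 and Epx numbered 2 in MI-E, 3 in MI and 0 in Sham. The haemoglobin genes of red cells summed to 1001 CPM in MI-E, 1056 CPM in MI and 3080 CPM in Sham. Cells with at least 10 haemoglobin UMIs, 15 in MI-E, 31 in MI and 65 in Sham, held 89.6%, 88.8% and 91.7% of these UMIs in MI-E, MI and Sham. None of the 8 listed T and natural killer cell genes and none of the 7 megakaryocyte genes reached a mean of 10 CPM. The 9 listed genes of maturing neutrophils summed to 1058 CPM in MI-E, 1166 CPM in MI and 1079 CPM in Sham, against 14079, 18812 and 6344 CPM in the B lineage cells of MI-E, MI and Sham. This list holds Camp, Ngp and Ltf, which the rule keeps under 1% of UMIs in each chosen cell. Its low sum in the chosen cells is therefore set in part by the rule and is a description only. Scrublet, a doublet caller, marked 48 of the chosen cells in MI-E, 68 in MI and 45 in Sham, which were kept unless stated.

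The progenitors and promyelocytes made up a larger part of both infarct libraries than of Sham. Their share of filtered cells was 2.35% (2.16 to 2.56) in MI-E, 2.66% (2.45 to 2.87) in MI and 1.24% (1.11 to 1.39) in Sham. The log2 ratio was 1.10 for MI over Sham, 0.92 for MI-E over Sham and -0.17 for MI-E over MI. The ranges from the opposite interval bounds, which are wider than 95% intervals, were 0.82 to 1.37, 0.64 to 1.21 and -0.41 to 0.06 for MI over Sham, MI-E over Sham and MI-E over MI. Over all filtered cells, the range for MI-E over MI spanned both signs, and whether the MI-E and MI shares differ was not tested. Among cells with low Camp, Ngp and Ltf, the share was 3.11% in MI-E and 3.89% in MI, a log2 ratio of -0.32 with a range of -0.56 to -0.09. With cells holding a Cd79a UMI left out as well, that range was -0.39 to 0.07.

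The size of the difference from Sham depended on which cells it was counted against. Among cells with no Cd79a UMI, so with most of the B lineage left out, the share was 3.42% (3.14 to 3.72) in MI-E, 3.44% (3.18 to 3.72) in MI and 2.89% (2.58 to 3.22) in Sham. There the log2 ratio of MI over Sham was 0.25, with a range of -0.02 to 0.53. Among cells that also had low Camp, Ngp and Ltf, which leaves out maturing neutrophils too, the shares were 4.95%, 5.53% and 3.59% in MI-E, MI and Sham. B lineage cells numbered 4133 in MI-E, 3268 in MI and 10993 in Sham, and their part in the difference over all cells was not tested. A Ficoll gradient removes dense cells, and its part in the shares was not tested either.

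Set against the next stage, the progenitors were scarcer in the infarct libraries. Dividing neutrophil precursors (Camp, Ngp and Ltf at 1% of UMIs or more, no Cd79a UMI, at least 2 UMIs of the division genes Mki67 and Top2a) numbered 1331 in MI-E, 1879 in MI and 562 in Sham. Progenitors and promyelocytes were 28.5% (26.4 to 30.6) of both groups together in MI-E, 24.9% (23.2 to 26.6) in MI and 35.6% (32.4 to 38.9) in Sham. Camp, which helps part these groups, stood in B lineage cells at 5057 CPM in MI-E, 7686 CPM in MI and 2675 CPM in Sham. The parts of free RNA, depth and the Ficoll gradient in these shares were not tested. Dividing monocyte progenitors, cells with monocyte genes outside the rule, made up 7.90% of filtered cells in MI-E, 6.77% in MI and 4.05% in Sham. Early progenitors with Cd34 or Kit and no granule gene expression at the rule's level made up 1.35%, 1.20% and 0.707% in MI-E, MI and Sham.

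**Figure D1:**
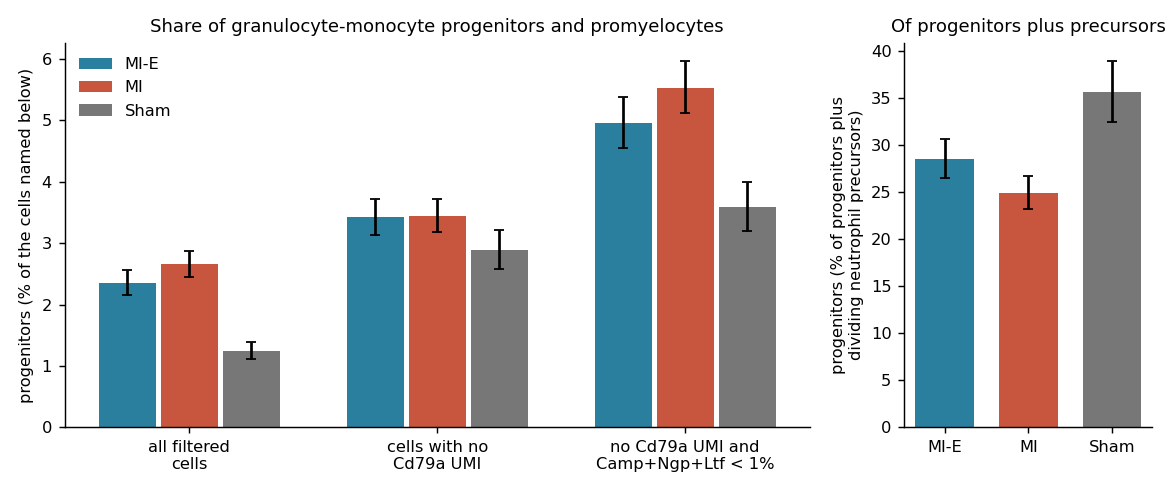
Progenitors and promyelocytes as a percentage of 3 sets of filtered cells (left) and of themselves plus dividing neutrophil precursors (right), with exact 95% intervals, in MI-E, MI and Sham. Both infarct libraries stand above Sham over all filtered cells (2.66% in MI against 1.24% in Sham) and below it in the right panel (24.9% in MI against 35.6% in Sham).

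The rule cuts a continuous range of granule gene content, and the libraries lay differently along it. The median share of UMIs from the 4 genes was 1.88% in MI-E, 1.81% in MI and 3.10% in Sham. Cells at 4% or more numbered 19 in MI-E (3.58%), 18 in MI (2.89%) and 86 in Sham (27.7%). Just inside the threshold, at 1 to 2%, were 283, 338 and 100 cells in MI-E, MI and Sham, and just outside it, at 0.5 to 1%, were 319, 347 and 122. The cells inside averaged 405, 371 and 589 CPM of Irf8 in MI-E, MI and Sham, and those outside 544, 528 and 529 CPM. Of the cells that passed the granule gene threshold, 166 in MI-E, 254 in MI and 141 in Sham were set aside for Camp, Ngp and Ltf, and a further 101, 66 and 108 for Cd79a.

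Among the azurophil granule genes, the 4 genes of the rule are described first. Mpo, myeloperoxidase, which makes hypochlorous acid (gene at chr11:87793581-87804413, mm10), stood at 6203 CPM in MI-E, 5033 CPM in MI and 7763 CPM in Sham. Elane, neutrophil elastase (chr10:79886247-79888215), stood at 5304 CPM in MI-E, 5317 CPM in MI and 9904 CPM in Sham. Prtn3, proteinase 3, which lies beside Elane (chr10:79874476-79883174), stood at 6496 CPM in MI-E, 6639 CPM in MI and 9010.2 CPM in Sham. Sham was highest for these 3 genes, and the infarct libraries were almost level for Elane and Prtn3. Ctsg, cathepsin G (chr14:56099881-56102574), stood at 2800.2 CPM in MI-E, 4023 CPM in MI and 3469 CPM in Sham, highest in MI and lowest in MI-E.

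Genes outside the rule filled in the granule picture. Ms4a3 stood at 1082 CPM in MI-E, 1357 CPM in MI and 1254 CPM in Sham. Srgn, the serglycin core that packs granule proteases, stood at 1830.1 CPM in MI-E, 2009 CPM in MI and 2424 CPM in Sham, and Prss57, a further azurophil serine protease, at 251 CPM in MI-E, 251 CPM in MI and 321 CPM in Sham. Lyz2, lysozyme, stood at 380.3 CPM in MI-E, 547 CPM in MI and 974 CPM in Sham, and MI was 1.78-fold lower (1.72 to 1.85) than Sham. Lyz2 stood higher in B lineage cells of each library, at 2348 CPM in MI-E, 2842 CPM in MI and 2977 CPM in Sham, and the part of free RNA in its level was not tested. Cd63, a tetraspanin of the granule membrane, stood at 351 CPM in MI-E, 369 CPM in MI and 641 CPM in Sham. Hexa, a lysosomal hexosaminidase subunit, stood at 100.4 CPM in MI-E, 72.0 CPM in MI and 176 CPM in Sham, 2.44-fold lower (2.23 to 2.67) in MI than in Sham. Over the list of 17 azurophil granule genes, which holds the 4 genes of the rule, 6 were higher and 11 lower in MI than in Sham, with a median log2 ratio of -0.36. Because those 4 genes chose the cells, this list value is a description only. The median over all 7666 genes at 10 CPM or more was 0.06.

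**Figure D2:**
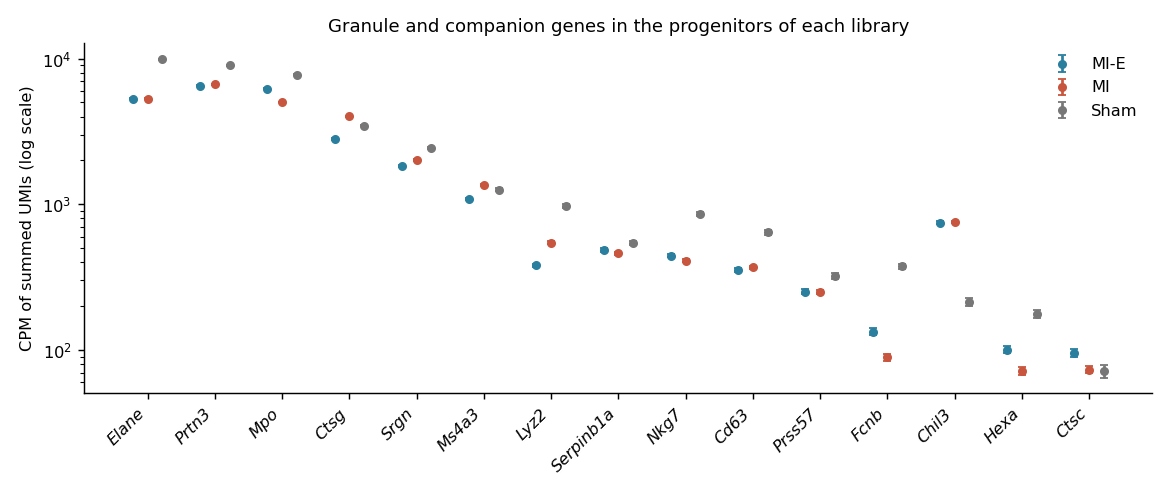
Levels of granule and companion genes in the progenitors and promyelocytes of MI-E, MI and Sham, as CPM of summed UMIs on a log scale with exact Poisson 95% intervals. Elane stands at 5304 CPM in MI-E, 5317 CPM in MI and 9904 CPM in Sham, while Ctsg is highest in MI and Chil3 higher in both infarct libraries.

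The proteins that guard the cell against its own granules were measured too. Serpinb1a, which inhibits elastase, proteinase 3 and cathepsin G, stood at 486 CPM in MI-E, 463 CPM in MI and 544 CPM in Sham. Slpi, secretory leukocyte protease inhibitor, stood at 259.8 CPM in MI-E, 229 CPM in MI and 317 CPM in Sham, and Cst7, cystatin F, an inhibitor of lysosomal cysteine proteases, at 179.7 CPM in MI-E, 133 CPM in MI and 192 CPM in Sham. All 6 measured protease inhibitors, of 16 in the table, were lower in MI than in Sham (median log2 ratio -0.38), and 4 of the 6 were higher in MI-E than in MI, a share like the 67.6% of all genes that were higher in MI-E. Of the phagocyte NADPH oxidase, which makes superoxide, all 8 subunit genes were lower in MI than in Sham (median -0.32) and 6 of 8 were higher in MI-E than in MI (median 0.21, against 0.10 over all genes). Its catalytic subunit Cybb stood at 172 CPM in MI-E, 137 CPM in MI and 180.2 CPM in Sham and its partner Cyba at 584 CPM in MI-E, 714 CPM in MI and 915 CPM in Sham. Cybb was higher in B lineage cells of each library, at 681 CPM in MI-E, 654 CPM in MI and 437 CPM in Sham.

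The cells formed a graded series from monocyte-leaning to neutrophil-leaning, seen in each library. Cells were ranked within their library by the share of UMIs from the 4 granule genes and cut into quartiles, so the groups differ by construction in those genes. Irf8, a transcription factor of the monocyte path, was lower in the top quartile than in the bottom one, at 15.7 against 452 CPM in MI-E, 10.2 against 423 CPM in MI and 5.20 against 635 CPM in Sham. Klf4, its partner in that path, stood at 4.24 against 129 CPM in MI-E, 6.01 against 139.8 CPM in MI and 0.867 against 182 CPM in Sham. Csf1r, the receptor for the monocyte growth factor M-CSF, stood at 5.08 against 45.4 CPM in MI-E, 2.40 against 39.1 CPM in MI and 2.60 against 77.8 CPM in Sham. The progenitor surface protein Cd34 ran the same way, at 4.24 against 76.0 CPM in MI-E, 8.71 against 90.4 CPM in MI and 4.34 against 80.1 CPM in Sham.

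Neutrophil genes ran in the other direction. Gfi1, a repressor needed for neutrophil formation, stood at 249 against 24.2 CPM in MI-E, 156 against 24.1 CPM in MI and 181 against 15.4 CPM in Sham in the top against the bottom quartile. Cebpe, which drives later granule genes, stood at 301 against 27.4 CPM in MI-E, 266 against 33.2 CPM in MI and 325 against 40.0 CPM in Sham. Csf3r, the receptor for G-CSF, stood at 114 against 36.4 CPM in MI-E, 69.7 against 33.2 CPM in MI and 110.2 against 54.7 CPM in Sham. Nkg7, a granule membrane protein best known in cytotoxic lymphocytes, stood at 900.0 against 139 CPM in MI-E, 799 against 139 CPM in MI and 1475 against 220.2 CPM in Sham, and Serpinb1a at 967 against 217 CPM in MI-E, 827 against 195 CPM in MI and 834 against 208 CPM in Sham. Fcnb, ficolin B, a lectin of neutrophil precursors, stood at 360.4 against 21.6 CPM in MI-E, 217 against 14.4 CPM in MI and 749 against 67.7 CPM in Sham. Npm1, the nucleolar protein nucleophosmin, was lower in the top quartile, at 1395 against 3167 CPM in MI-E, 1919.5 against 2745 CPM in MI and 1138 against 1935 CPM in Sham. Mki67, a marker of dividing cells, differed less, at 307 against 332 CPM in MI-E, 229 against 280.0 CPM in MI and 283 against 358 CPM in Sham. Each of these genes ran the same way in the 3 libraries.

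**Figure D3:**
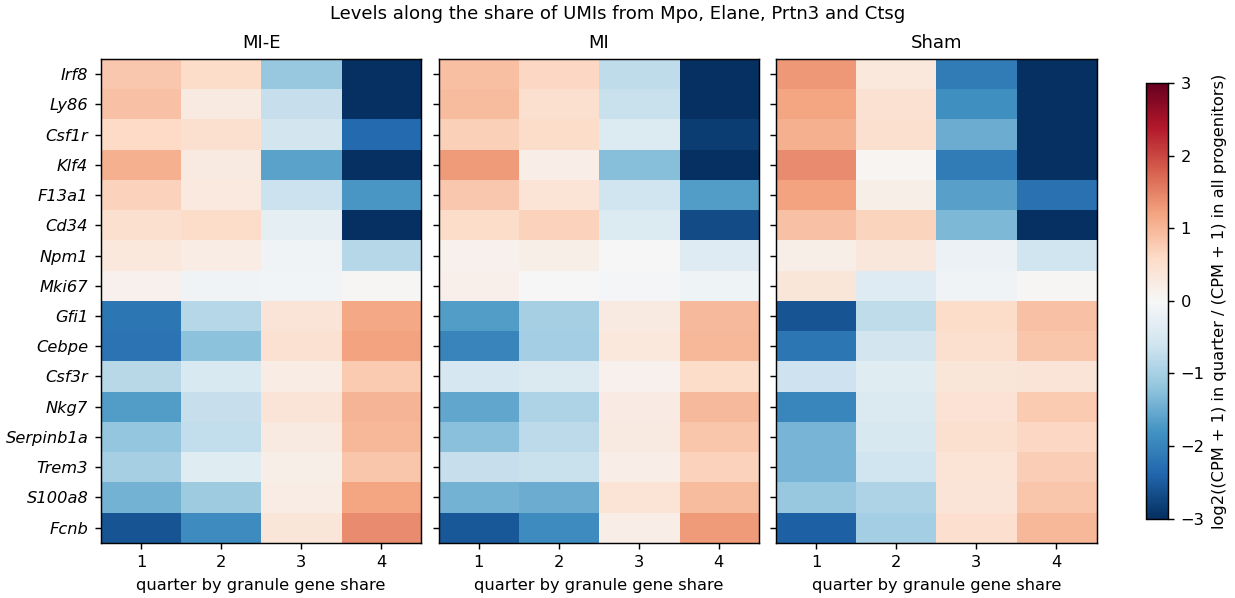
Level of 16 genes in the 4 quartiles of the progenitors and promyelocytes, ranked within each library by their share of UMIs from Mpo, Elane, Prtn3 and Ctsg, as log2 of (CPM + 1) over the library's level. Irf8, Ly86, Csf1r, Klf4, F13a1 and Cd34 are high in quartiles 1 and 2, and Gfi1, Cebpe, Nkg7, Serpinb1a, S100a8 and Fcnb in quartiles 3 and 4, in each of MI-E, MI and Sham.

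At the level of single cells, Irf8 and the pair Gfi1 and Cebpe were largely found apart. With cells thinned to 6000 UMIs (518 cells in MI-E, 605 in MI and 295 in Sham; 12, 18 and 16 shallower cells left out), 32.4% of cells in MI-E, 33.2% in MI and 28.5% in Sham held Irf8 and neither of the pair. Gfi1 or Cebpe without Irf8 was found in 44.8% of cells in MI-E, 41.0% in MI and 49.8% in Sham, and Irf8 together with either gene in 15.6%, 11.6% and 12.9% of MI-E, MI and Sham cells. A UMI of Gfi1 or Cebpe was present in 32.5% of cells with Irf8 and 86.2% of cells without it in MI-E, 25.8% and 74.3% in MI, and 31.1% and 85.0% in Sham. Cells with neither made up 7.14% (5.08 to 9.71) in MI-E, 14.2% (11.5 to 17.3) in MI and 8.81% (5.84 to 12.6) in Sham. Irf8 also reaches B lineage cells, where it was found in 38.8%, 36.0% and 39.0% of cells thinned to 2000 UMIs in MI-E, MI and Sham, against 28.6%, 30.3% and 28.1% of the chosen cells at that depth. Without thinning, Irf8 had a UMI in 54.7%, 57.8% and 48.2% of the chosen cells of MI-E, MI and Sham.

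Elane, a gene of the rule, differed along this division, and its level is given as a description only. Elane averaged 2693, 2934 and 4919 CPM in the Irf8 cells of MI-E, MI and Sham, and 8022, 7919 and 13822 CPM in the Gfi1 or Cebpe cells. The coagulation factor gene F13a1, high in monocyte progenitors, averaged 581, 541 and 554 CPM in the Irf8 cells and 124, 106 and 64.3 CPM in the Gfi1 or Cebpe cells of MI-E, MI and Sham. Across cells thinned to 2000 UMIs, Elane and Prtn3 had a Spearman correlation of 0.66 in MI-E (528 cells), 0.58 in MI (620 cells) and 0.71 in Sham (310 cells), and Mpo and Irf8 one of -0.42, -0.39 and -0.50. These correlations describe cells of 1 library each, at equal depth, chosen on the genes correlated.

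Along a second cut, by monocyte genes, the libraries also differed. Cells with no UMI of Csf1r, Ly86, F13a1 or Ccr2 made up 16.0% of the chosen cells in MI-E, 14.8% in MI and 35.7% in Sham. Cells with 10 or more such UMIs made up 45.5% in MI-E, 44.8% in MI and 33.4% in Sham. These shares were taken at each cell's own depth, and the part of the lower Sham depth in them was not tested. The summed levels of the transcription factors differed less. Gfi1 stood at 111 CPM in MI-E, 78.8 CPM in MI and 97.5 CPM in Sham, Cebpe at 129.6 CPM in MI-E, 133 CPM in MI and 183 CPM in Sham and Irf8 at 258 CPM in MI-E, 226 CPM in MI and 256 CPM in Sham. Cebpa, needed to form these progenitors, stood at 78.5 CPM in MI-E, 66.0 CPM in MI and 67.2 CPM in Sham. Myc, a driver of growth and ribosome production, stood at 116 CPM in MI-E, 107 CPM in MI and 70.1 CPM in Sham.

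MI over Sham sets these cells after infarction against those of the Sham group. Genes of ribosome assembly, Rbm3 and the snoRNA hosts Snhg9, Snhg3 and Snhg4 were higher in MI, and immediate early genes, most measured interferon genes and some granule genes were lower. Of 5630 genes that averaged 20 CPM or more in this pair of libraries, 36 (0.639%) were at least 2-fold higher and 41 (0.728%) at least 2-fold lower in MI. In both libraries 10 of the 36 and 20 of the 41 stood below their level in B lineage cells, and the part of free RNA in them was not tested. Among those 10 were Chil3 and Lcn2. In the progenitors Chil3 stood at 749 CPM in MI-E, 756 CPM in MI and 214 CPM in Sham. In B lineage cells Chil3 stood at 2428 CPM in MI-E, 2529.9 CPM in MI and 488 CPM in Sham. It was high in both dividing lines, at 8122, 6523 and 5078 CPM in dividing neutrophil precursors of MI-E, MI and Sham. Dividing monocyte progenitors held 3419 CPM of Chil3 in MI-E, 2999.8 CPM in MI and 1142 CPM in Sham.

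Snhg9, host of a small nucleolar RNA that guides ribosomal RNA modification (chr17:24719531-24719965, mm10), stood at 163 CPM in MI-E, 292 CPM in MI and 53.3 CPM in Sham, 5.48-fold higher (4.86 to 6.21) in MI than in Sham. Snhg3, of the same kind (chr4:132348014-132353686), stood at 261 CPM in MI-E, 434 CPM in MI and 121 CPM in Sham, 3.59-fold higher (3.31 to 3.90) in MI than in Sham. Rbm3, an RNA-binding protein induced by cold (chrX:8138975-8145880), stood at 1001 CPM in MI-E, 1466 CPM in MI and 465 CPM in Sham, 3.15-fold higher (3.02 to 3.29) in MI than in Sham. Snhg4, a further snoRNA host, stood at 98.4 CPM in MI-E, 171 CPM in MI and 53.5 CPM in Sham. The relative of Rbm3, Cirbp, the other listed cold-inducible gene, stood at 75.4 CPM in MI-E, 99.0 CPM in MI and 49.5 CPM in Sham. In all 3 snoRNA hosts named, Snhg4 included, and in both cold-inducible genes, MI-E lay between MI and Sham. Rbm3 was higher in MI in other cells too, with log2 ratios of MI over Sham of 1.65 in dividing neutrophil precursors, 1.24 in early progenitors and 0.82 in B lineage cells, against 1.66 here.

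Genes of metabolism were next. Psat1, an enzyme of serine synthesis, stood at 115 CPM in MI-E, 99.5 CPM in MI and 47.6 CPM in Sham, 2.09-fold higher (1.83 to 2.40) in MI than in Sham. Slc7a5, a transporter of large neutral amino acids, stood at 68.0 CPM in MI-E, 76.4 CPM in MI and 36.2 CPM in Sham, 2.11-fold higher (1.81 to 2.48) in MI. Ldha, lactate dehydrogenase A, stood at 613 CPM in MI-E, 643 CPM in MI and 348 CPM in Sham, 1.85-fold higher (1.76 to 1.94) in MI. For these 3 genes the infarct libraries were alike and Sham apart. Khk, the first enzyme of fructose use, stood at 64.5 CPM in MI-E, 88.7 CPM in MI and 40.7 CPM in Sham, and Chchd10, a mitochondrial protein, was 3.15-fold higher (2.72 to 3.67) in MI than in Sham. In B lineage cells Chchd10 stood higher and ran the other way, at 194 CPM in MI-E, 205 CPM in MI and 521 CPM in Sham. Dennd5b, an exchange factor for Rab proteins, stood at 158 CPM in MI-E, 194 CPM in MI and 65.2 CPM in Sham, and the zinc finger gene Zfp593 at 84.1 CPM in MI-E, 125 CPM in MI and 53.7 CPM in Sham.

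The genes lowest in MI against Sham began with basophil proteases. Prss34 stood at 45.9 CPM in MI-E, 43.3 CPM in MI and 807 CPM in Sham, Mcpt8 at 56.9 CPM in MI-E, 59.4 CPM in MI and 484 CPM in Sham and the mast cell carboxypeptidase Cpa3 at 20.6 CPM in MI-E, 34.2 CPM in MI and 134 CPM in Sham. A single Sham cell held 615 of the 4284 Prss34 UMIs, and the 12 basophil-rich Sham cells described above held 98.3% of the UMIs of these genes and Ms4a2. Without basophil-rich and eosinophil-rich cells, the log2 ratio of MI over Sham was 0.70 for Mcpt8 and 0.99 for Cpa3, the opposite direction from the -3.02 and -1.97 over all chosen cells. In Prss34, MI over Sham, it was -1.15 without them and -4.22 with them.

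Neutrophil and myeloid effector genes followed. Fcnb stood at 134 CPM in MI-E, 89.2 CPM in MI and 375 CPM in Sham, 4.20-fold lower (3.91 to 4.51) in MI than in Sham, against 74.3 CPM in MI-E, 69.9 CPM in MI and 59.7 CPM in Sham in B lineage cells. Its log2 ratio of MI over Sham was -1.73 in cells with 1 to 2% granule gene UMIs, -1.24 at 2 to 4% and -1.39 at 4% or more. Nkg7 stood at 445 CPM in MI-E, 409.5 CPM in MI and 859 CPM in Sham, 2.10-fold lower (2.02 to 2.18) in MI, but only -0.29, -0.61 and -0.37 as log2 ratios within those 3 bands. C3, the central complement protein, stood at 95.5 CPM in MI-E, 65.2 CPM in MI and 208 CPM in Sham, 3.19-fold lower (2.92 to 3.49) in MI. Hdc, which makes histamine and is also a basophil gene, stood at 58.9 CPM in MI-E, 45.2 CPM in MI and 102 CPM in Sham. Ltb4r1, a receptor for leukotriene B4, stood at 79.1 CPM in MI-E, 55.6 CPM in MI and 118 CPM in Sham, Fcgr3, a low-affinity IgG receptor, at 114 CPM in MI-E, 82.8 CPM in MI and 168 CPM in Sham, and Lgals1, galectin-1, at 404 CPM in MI-E, 335 CPM in MI and 652 CPM in Sham. For each of these 7 genes Sham was the highest library.

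Taking gene lists as units, ribosome biogenesis, the nucleolar machinery that builds ribosomes, was higher throughout. All 30 of its genes were higher in MI than in Sham, none by 2-fold, with a median log2 ratio of 0.58, against 0.06 over all genes at the same minimum, of which 4416 of 7666 were higher. Ncl, nucleolin, stood at 1748 CPM in MI-E, 1784 CPM in MI and 1004 CPM in Sham, 1.78-fold higher (1.73 to 1.83) in MI than in Sham. Npm1 stood at 2540.3 CPM in MI-E, 2496 CPM in MI and 1713 CPM in Sham, and Mybbp1a, a nucleolar Myb-binding protein, at 252 CPM in MI-E, 247 CPM in MI and 139 CPM in Sham. Nolc1, a chaperone of snoRNA particles, stood at 204 CPM in MI-E, 207 CPM in MI and 118 CPM in Sham, while Rrs1, a ribosome assembly factor, had the smallest ratio of the list, at 56.2 CPM in MI-E, 60.7 CPM in MI and 55.2 CPM in Sham. In each of these genes but Rrs1 the infarct libraries were close to each other and above Sham. The proteins of the ribosome itself stood at the level of all genes: of 79 measured, 44 were higher in MI, with a median of 0.01. The palindrome CACGTG, the E-box that Myc and its relatives bind, lay in 4 of 25 promoters of the list found in the RefSeq table (16%), against 8.09% of all symbols there. Whether these shares differ was not tested, the count of 4 is small, and a match is not a shown binding site.

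The difference in ribosome biogenesis had the same sign in every band of granule content. Its median log2 ratio of MI over Sham was 0.63 at 1 to 2% granule UMIs (30 of 30 higher), 0.39 at 2 to 4% (29 of 30) and 0.26 at 4% or more (24 of 30), where MI had 18 cells. Cells with no monocyte gene UMI gave 0.64 and cells with 10 or more gave 0.56. Against other cells, the median was 0.55 in dividing neutrophil precursors (26 of 26 higher), 0.56 in dividing monocyte progenitors (30 of 30), 0.14 in early progenitors (22 of 30) and -0.08 in B lineage cells (13 of 30). Within each library, ribosome biogenesis RNA was lower in the cells with more granule content: the summed list stood at 5429.8 CPM in the top quartile and 9832 in the bottom quartile of MI-E, 7068 and 8893 in MI, and 4519 and 6040.1 in Sham. All 26 proteasome subunit genes were also higher in MI than in Sham, by a smaller median of 0.29, and Psmd14, a lid subunit, stood at 130.1 CPM in MI-E, 145 CPM in MI and 90.6 CPM in Sham.

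The cell cycle lists lay close to the level of all genes. The median log2 ratio of MI over Sham was -0.01 over 40 S phase genes and 0.01 over 40 G2 and M phase genes, with 16 and 22 genes higher. With cells thinned to 2000 UMIs, Mki67 was found in 39.2%, 33.5% and 33.9% of MI-E, MI and Sham cells. The summed level of Top2a, a topoisomerase of dividing cells, was 430.3 CPM in MI-E, 391 CPM in MI and 391 CPM in Sham.

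Immediate early genes, which answer growth and stress signals within minutes, were lower in MI than in Sham in all 15 measured members, 9 of them by 2-fold or more, with a median log2 ratio of -1.15. Over all genes at the same minimum, 57.6% were higher in MI and 0.887% lower by 2-fold or more, with a median of 0.06. Jun, an AP-1 subunit (chr4:95049034-95052222), stood at 37.5 CPM in MI-E, 28.0 CPM in MI and 132 CPM in Sham, 4.72-fold lower (4.16 to 5.36) in MI than in Sham. Its partner Fos stood at 49.4 CPM in MI-E, 42.0 CPM in MI and 129.6 CPM in Sham, Fosb at 4.45 CPM in MI-E, 3.83 CPM in MI and 39.0 CPM in Sham and Jund at 39.4 CPM in MI-E, 37.7 CPM in MI and 100.4 CPM in Sham. Sham was the highest library for each of these. The same list was lower in MI in other cells: the median was -1.34 in dividing monocyte progenitors, -1.02 in early progenitors, -0.53 in dividing neutrophil precursors and -0.53 in B lineage cells. Jun in B lineage cells stood at 70.3 CPM in MI-E, 64.0 CPM in MI and 198 CPM in Sham, and Jun, Fos, Fosb and Jund were each above their level in the progenitors of each library.

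Few interferon genes were measured in these cells. Of 46 genes of the type I interferon response in the table, 17 reached 10 CPM, and 15 of these were lower in MI than in Sham (median -0.49). Ifi27l2a stood at 8.10 CPM in MI-E, 9.10 CPM in MI and 66.9 CPM in Sham and Ly6e, the list's most abundant member, at 617 CPM in MI-E, 618 CPM in MI and 659 CPM in Sham. Both stood higher in B lineage cells of each library, Ifi27l2a at 133 CPM in MI-E, 193 CPM in MI and 926 CPM in Sham, and the part of free RNA was not tested. The list was lower in MI in dividing monocyte progenitors (median -1.24) and in B lineage cells (-0.60) as well. The mitochondrially encoded genes, a measure that also follows RNA quality, were lower in MI than in Sham in 12 of 13 cases (median -0.36), with median mitochondrial UMI shares of 2.30%, 1.83% and 2.26% in MI-E, MI and Sham.

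Alarmins and acute phase genes need reading with their levels in B lineage cells beside them, and the part of free RNA was not tested. Of 23 measured, 14 were higher in MI than in Sham, 7 of them by 2-fold or more. Over all genes at the same minimum, 57.6% were higher in MI and 0.952% higher by 2-fold or more. The summed level of the 27 listed genes was lower in MI than in Sham, with a log2 ratio of -0.30. Lcn2, lipocalin 2, stood at 337 CPM in MI-E, 559.6 CPM in MI and 123 CPM in Sham in the progenitors and at 2387 CPM in MI-E, 3896 CPM in MI and 763 CPM in Sham in B lineage cells. S100a8, a calcium-binding alarmin, stood at 7718 CPM in MI-E, 7485 CPM in MI and 11336 CPM in Sham, higher in Sham. Ifitm1, a small membrane protein induced by interferon, stood at 107 CPM in MI-E, 184 CPM in MI and 23.9 CPM in Sham, against 140.1 CPM in MI-E, 292 CPM in MI and 44.3 CPM in Sham in B lineage cells. S100a8 in B lineage cells stood at 29782 CPM in MI-E, 38768 CPM in MI and 12252 CPM in Sham, lower in Sham there. For these 3 genes the B lineage cells of each library were above the progenitors.

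**Figure D4:**
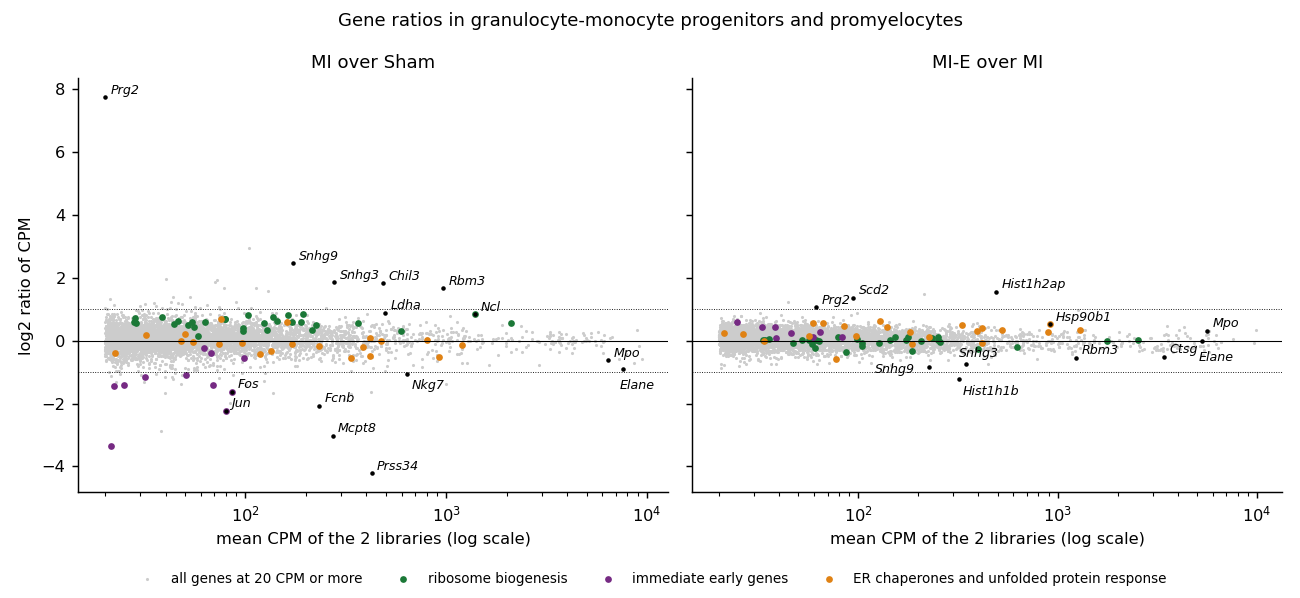
Log2 ratio of each gene's CPM against its mean CPM (log scale), MI over Sham (left) and MI-E over MI (right), for genes at 20 CPM or more; dotted lines mark 2-fold. Ribosome biogenesis genes (green) lie above 0 on the left and around 0 on the right, immediate early genes (purple) below 0 on the left, and the Prg2 point at top left of the left panel rests on 1 Sham UMI.

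MI-E over MI sets infarction with EMPA against infarction alone. Few genes differed by 2-fold: of 5789 genes compared, 5 (0.0864%) were higher and 1 (0.0173%) lower in MI-E. Endoplasmic reticulum chaperone genes, mitochondrially encoded genes and immediate early genes were mostly higher in MI-E, and Snhg9, Snhg3, Snhg4, Rbm3 and Ctsg were lower. The median over all genes was 0.10, with 5186 of 7666 higher in MI-E, and the list medians here are to be read against it.

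Hist1h2ap, a histone H2A gene, stood at 732 CPM in MI-E, 251 CPM in MI and 306 CPM in Sham, 2.91-fold higher (2.80 to 3.03) in MI-E than in MI. Near-identical H2A copies make its count uncertain, and its log2 ratio was 1.97 in B lineage cells, larger than the 1.54 here. Scd2, a desaturase that makes monounsaturated fatty acids (chr19:44293674-44306864), stood at 135 CPM in MI-E, 52.6 CPM in MI and 91.5 CPM in Sham, 2.57-fold higher (2.35 to 2.81) in MI-E than in MI. MI was the lowest library for Scd2, and its ratio was 1.97 on the log2 scale in dividing monocyte progenitors and 0.74 in B lineage cells. Prg2, the eosinophil major basic protein, stood at 83.3 CPM in MI-E and 39.9 CPM in MI, but 1 cell in each held most of its UMIs, 580 of 935 in MI-E and 471 of 553 in MI, and for Prg2, MI-E over MI, the log2 ratio was 2.42 without the top cell of each library and -5.39 with marked doublets removed, against 1.06 over all chosen cells.

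Further named genes higher in MI-E had smaller ratios. Ass1, argininosuccinate synthase, stood at 65.8 CPM in MI-E, 38.8 CPM in MI and 71.4 CPM in Sham, and Wdcp, a WD repeat protein, at 128 CPM in MI-E, 69.2 CPM in MI and 42.4 CPM in Sham. Kcnab2, a potassium channel subunit, was 1.56-fold higher (1.43 to 1.71), Sypl, a synaptophysin-like vesicle protein, 1.52-fold higher (1.42 to 1.62) in MI-E than in MI, and Nrros, a regulator of reactive oxygen, stood at 151 CPM in MI-E, 100.2 CPM in MI and 121 CPM in Sham. For Ass1, MI was the lowest of the 3 libraries.

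Hist1h1b, a linker histone, was the 1 gene at least 2-fold lower in MI-E, at 194 CPM in MI-E, 448 CPM in MI and 441 CPM in Sham, 2.31-fold lower (2.20 to 2.42) than in MI. Hist1h2bj, H2afj and the lipid droplet protein Plin2 were lower as well, Plin2 at 54.0 CPM in MI-E, 87.9 CPM in MI and 58.9 CPM in Sham, H2afj, a histone H2A variant, at 625 CPM in MI-E, 947 CPM in MI and 633 CPM in Sham and Hist1h2bj, a histone H2B, at 46.1 CPM in MI-E, 77.8 CPM in MI and 60.8 CPM in Sham. Pfdn6, a subunit of the prefoldin chaperone, was 1.52-fold lower (1.42 to 1.62). Snhg9 was 1.80-fold lower (1.70 to 1.90), Snhg3 1.67-fold lower (1.59 to 1.74) and Snhg4 1.74-fold lower (1.62 to 1.87) in MI-E than in MI, and the log2 ratio of Rbm3 was -0.55. Ctsg was 1.44-fold lower (1.42 to 1.46) in MI-E than in MI. In B lineage cells Ctsg was also lower in MI-E than in MI, at 317 CPM in MI-E, 447 CPM in MI and 186 CPM in Sham. The part of free RNA in these levels was not tested. Mpo ran in the opposite direction, 1.23-fold higher (1.22 to 1.25) in MI-E than in MI.

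Endoplasmic reticulum chaperones, which fold secreted and granule proteins, were higher in MI-E than in MI in 19 of 24 cases, with a median log2 ratio of 0.26. Hsp90b1, the chaperone Grp94, stood at 1078 CPM in MI-E, 754 CPM in MI and 1079 CPM in Sham, 1.43-fold higher (1.39 to 1.47) in MI-E than in MI. Pdia4, a disulfide isomerase, stood at 156 CPM in MI-E, 101 CPM in MI and 136 CPM in Sham, 1.54-fold higher (1.43 to 1.65), and Hspa5, the chaperone BiP, at 973 CPM in MI-E, 812 CPM in MI and 797 CPM in Sham. Herpud1, of the degradation arm, was lower in MI-E, at 61.8 CPM in MI-E, 93.1 CPM in MI and 58.4 CPM in Sham. The list's median was 0.21 in dividing neutrophil precursors and 0.22 in dividing monocyte progenitors, but 0.07 in early progenitors and 0.03 in B lineage cells.

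All 13 mitochondrially encoded genes were higher in MI-E than in MI (median 0.33), and all 13 were also higher in dividing monocyte progenitors, early progenitors and B lineage cells. mt-Co1, a subunit of cytochrome oxidase, stood at 4929 CPM in MI-E, 3663 CPM in MI and 4274 CPM in Sham. Immediate early genes were higher in 14 of 15 cases (median 0.29), with Jun 1.34-fold higher (1.16 to 1.54) in MI-E. Of 16 glycolysis genes, 13 were higher (median 0.27), with Pfkl, a phosphofructokinase, at 40.4 CPM in MI-E, 26.3 CPM in MI and 23.7 CPM in Sham. Ribosome biogenesis split evenly, with 16 of 30 higher (median 0.01), and 19 of 26 proteasome subunits were lower (median -0.11). Alarmin and acute phase genes were lower in 18 of 23 cases (median -0.22).

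**Figure D5:**
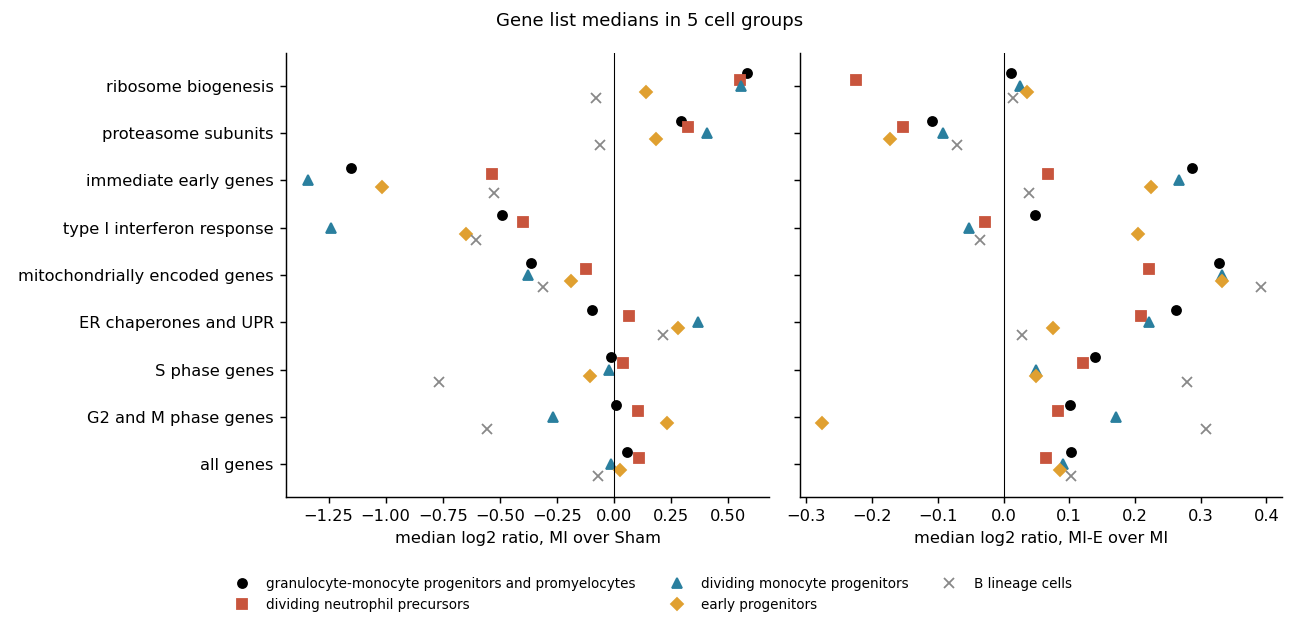
Median log2 ratio of 8 gene lists and of all genes in the progenitors and promyelocytes and in 4 other cell groups, MI over Sham (left) and MI-E over MI (right). The progenitors (black) stand at 0.58 for ribosome biogenesis and -1.15 for immediate early genes on the left, and at 0.33 for mitochondrially encoded genes on the right, where the other groups lie close by.

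Receptors for growth factors and for homing were mostly lower in MI than in Sham, and in MI-E over MI they lay a little above the median of all genes. Of 16 growth factor and cytokine receptors, 11 were lower in MI (median -0.11) and 15 of 16 were higher in MI-E than in MI (median 0.17). Csf3r, the G-CSF receptor, stood at 66.1 CPM in MI-E, 47.5 CPM in MI and 84.0 CPM in Sham, 1.77-fold lower (1.56 to 2.00) in MI than in Sham. Csf2rb, the common beta chain of the GM-CSF receptor, ran the other way, at 91.4 CPM in MI-E, 85.0 CPM in MI and 54.2 CPM in Sham. Kit was level, at 85.5 CPM in MI-E, 80.9 CPM in MI and 85.3 CPM in Sham. Of 16 homing and retention receptors, 13 were lower in MI (median -0.30) and 14 higher in MI-E than in MI (median 0.20). Cxcr4, which holds progenitors in the marrow, stood at 103 CPM in MI-E, 86.1 CPM in MI and 90.8 CPM in Sham, Selplg, the selectin ligand PSGL-1, at 137 CPM in MI-E, 104 CPM in MI and 147 CPM in Sham and Itgam, the integrin CD11b, at 34.6 CPM in MI-E, 30.8 CPM in MI and 53.9 CPM in Sham.

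MI-E over Sham sets infarction with EMPA against the Sham group and shares its libraries with the comparisons above. Of 5761 genes compared, 29 (0.503%) were at least 2-fold higher and 24 (0.417%) at least 2-fold lower in MI-E, and 9 and 17 of these stood below their B lineage level in both libraries. Snhg9 was 3.05-fold higher (2.69 to 3.47) in MI-E than in Sham, Wdcp 3.03-fold higher (2.63 to 3.50), Hist1h2ap 2.40-fold higher (2.27 to 2.53), Chchd10 2.66-fold higher (2.28 to 3.10), Psat1 2.42-fold higher (2.12 to 2.78) and Dennd5b 2.42-fold higher (2.15 to 2.72). The basophil genes Prss34, Mcpt8 and Cpa3 were 17.6-fold, 8.50-fold and 6.52-fold lower in MI-E. Without basophil-rich and eosinophil-rich cells, the log2 ratio of MI-E over Sham was 0.72 for Mcpt8 and 0.25 for Cpa3, the opposite direction, and -1.39 for Prss34. Jun was 3.53-fold lower (3.12 to 3.99), Fcnb 2.80-fold lower (2.61 to 2.99), Lyz2 2.56-fold lower (2.46 to 2.67) and Hist1h1b 2.28-fold lower (2.15 to 2.41). Ribosome biogenesis genes were higher in MI-E than in Sham in 30 of 30 cases (median 0.57), and immediate early genes lower in 15 of 15 (median -0.63), against a median of 0.15 over all genes, of which 70.3% were higher in MI-E. In cells at 4% or more of granule UMIs, the ribosome biogenesis median was 0.02, with 17 of 30 genes higher, on 19 MI-E cells. Glycolysis genes were higher in 14 of 16 cases (median 0.35), Pgk1, phosphoglycerate kinase, at 404 CPM in MI-E, 335 CPM in MI and 249.9 CPM in Sham.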

How the data were processed

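Droplet single-cell libraries (10x 3′ v3.1, per the labels) of 3 groups, 1 library each, were deposited by the authors as whole-number UMI counts per gene and barcode. Per the submitters' processing notes, Cell Ranger 5.0.1 was used with build mm10; which annotation release went with it is not given. Groups came from the treatment labels.

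The 32285 gene IDs were summed to 32245 symbols, and 32158 IDs were matched to GENCODE M21 for positions. Barcodes had to hold 300 genes, 500 UMIs and no more than 10% mitochondrial UMIs, and the progenitors were chosen by the rule in the report. The chosen cells held 11230348 UMIs in MI-E, 13852387 in MI and 5310182 in Sham, which sets the precision of their levels. UMIs were summed over the chosen cells of a library and divided by their total (CPM). Ratios carry exact conditional binomial intervals, levels exact Poisson intervals and shares exact Clopper-Pearson intervals, at 95%. With 1 library per group there was no test and no p-value. Thinning drew 2000 UMIs per cell (6000 for Irf8, Gfi1 and Cebpe). Lists took members averaging 10 CPM or more in the 3 libraries, and the 2-fold counts took genes averaging 20 CPM or more in the pair compared. Doublets were marked with Scrublet (scanpy 1.11.5, seed 1), kept, and removed in an alternative. The sums and intervals were tested on simulated data. The tools were scipy 1.17.1 (intervals), pandas 2.3.3, numpy 2.4.6 and matplotlib 3.10.9 under Python 3.11.15.

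Named genes averaged 50 CPM or more in the pair. Immunoglobulin and T cell receptor segments, mitochondrial genes, genes of ribosomal proteins, unnamed gene models, and any gene that stood in both libraries below 0.5 times its level over all filtered cells were left out. The rest were ranked by the interval bound nearest a ratio of 1: the first 12 higher and 12 lower for MI over Sham, 10 and 10 for MI-E over MI, and 6 and 6 for MI-E over Sham. Rule genes, markers, and the most abundant and most different list members were added, and further list members were named after their values were seen. Not every gene this ranking picked is given here. The cells, lists and rules were chosen with earlier results of these data known. Alternatives covered the cell filter, rule thresholds, doublets, scaling, weighting, thinning, minimums and subsets of the chosen cells.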

Additional observations from a re-analysis of the deposited data

How the results depend on the processing

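Median-of-ratios scaling shifts all log2 ratios by -0.04 for MI over Sham, -0.10 for MI-E over MI and -0.14 for MI-E over Sham, and TMM by -0.03, -0.10 and -0.13. The log2 share ratio of MI over Sham (1.10) was 0.52 with thresholds of 50 UMIs and 2%, 0.67 with the rule applied to cells thinned to 2000 UMIs, 1.48 among cells with low Camp, Ngp and Ltf and 0.25 among cells with no Cd79a UMI, and that of MI-E over Sham (0.92) was 0.37 at the higher thresholds and 0.24 with no Cd79a UMI. Genes past 2-fold numbered 77 for MI over Sham, and 253 with thinned cells, 43 at 50 CPM, 155 in cells with no monocyte UMI and 147 in cells at 1 to 2% granule UMIs. For MI-E over MI (6) they numbered 24 at the higher thresholds, 12 without doublets, 11 with equal weight of cells, 78 thinned, 104 with no monocyte UMI, 12 at 1 to 2%, 25 at 2% or more and 12 with 10 or more monocyte UMIs. For MI-E over Sham (53) they numbered 236 thinned, 34 at 50 CPM, 114 with no monocyte UMI, 163 at 1 to 2% and 114 with 10 or more monocyte UMIs; smaller subsets and thinned cells hold fewer UMIs per gene. The ribosome biogenesis median of MI over Sham (0.58) was 0.49 at the higher thresholds, 0.62 with equal weight, 0.64 with no monocyte UMI, 0.63 at 1 to 2% and 0.49 at 2% or more. That of MI-E over Sham (0.57) was 0.28 at the higher thresholds, 0.42 and 0.44 under median-of-ratios and TMM, 0.39 with no monocyte UMI, 0.67 at 1 to 2%, 0.28 at 2% or more and 0.67 with 10 or more monocyte UMIs. The immediate early median of MI over Sham (-1.15) was -1.58 at 1 to 2%, and the mitochondrial median of MI-E over MI (0.33) was 0.53 with no monocyte UMI. Beside these, 202 other values of shares, counts and lists stayed close to the value reported. Ratios of the named genes, the rule genes and Ms4a3 were taken with counts of genes higher or lower by 2-fold. Of these values 995 stayed close to the value reported and 444 moved from it. Close meant within the counting interval for a gene ratio, while counts were judged by their fold difference. Among ratios under 2-fold, the sign of Elane and Prtn3 for MI-E over MI and of Mpo, Prtn3 and Ms4a3 for MI-E over Sham depended on the setting, and kept its direction under both scalings. The 5 ratios past 2-fold that turned were, without basophil-rich and eosinophil-rich cells, Mcpt8 (0.70) and Cpa3 (0.99) for MI over Sham and Mcpt8 (0.72) and Cpa3 (0.25) for MI-E over Sham, and, without doublets, that of Prg2, MI-E over MI (-5.39). The subsets at 1 to 2% and at 2% or more, with 10 or more monocyte UMIs and without basophil-rich and eosinophil-rich cells were chosen after seeing the data. With 1 library per group, no library could be left out, and no paired analysis was possible because the groups share no replicate.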

Other observations

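Other chaperone and stress lists held values of the same kind. Of 10 measured heat shock chaperone genes, 8 were higher in MI than in Sham (median log2 ratio 0.28, against 0.06 over all genes), and Hspd1, the mitochondrial chaperonin, stood at 582 CPM in MI-E, 531 CPM in MI and 366 CPM in Sham. The 14 measured genes of the glucocorticoid response had a median of -0.16 for MI over Sham and 0.26 for MI-E over MI. Zfp36l2, an RNA-binding protein of that list, stood at 234 CPM in MI-E, 184 CPM in MI and 197 CPM in Sham. Of 10 inflammatory genes of the NF-kB list, 9 were higher in MI-E than in MI (median 0.23), and Nfkb1, the p105 subunit, stood at 102 CPM in MI-E, 78.4 CPM in MI and 78.9 CPM in Sham. Among redox genes, Prdx5, a peroxiredoxin, stood at 459 CPM in MI-E, 504 CPM in MI and 862 CPM in Sham, while Sod1, a superoxide dismutase, stood at 262 CPM in MI-E, 209.9 CPM in MI and 131 CPM in Sham. Replication-dependent histone genes, which are near-identical copies in part, were lower in MI-E than in Sham in 15 of 16 cases (median -0.22), with Hist1h2ap as the exception.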
